A study of Homo sapiens with 20 samples.

Results

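The chromatin loops of 38 axon guidance genes were followed across 2 isogenic pairs of human glioblastoma (GBM) cell lines. The genes are 8 plexins and neuropilins, 7 semaphorins, 5 slits and slit receptors, 6 netrins and netrin receptors, 9 Eph receptors and 3 ephrins. A loop belonged to a gene when at least 1 of its anchors lay within 3 kb of a transcript start site of that gene on hg19. Of 572000 anchor pairs listed in any cell line, 1059 met this rule, and they lay at 29 of the 38 genes. Of 20149 protein-coding genes, 10019 had a listed anchor pair by the same rule, which is 49.7%.

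H4 and 42MGBA are GBM lines that carry their own endogenous mutations in STAG2, which encodes a subunit of the cohesin complex. The derivatives, in which the mutation was corrected, are H4 88-1 for the former and 42MGBA 53-1 for the latter, so that each STAG2 genotype was represented by 1 cell line per system, and a difference within a pair may belong to the derivative rather than to STAG2. The 4 lines were grown in the same medium. Hi-C, a genome-wide assay that joins DNA pieces which touch in the nucleus and sequences the joints, was done on 2 biological replicates of each. The authors pooled the replicates, and each list gives the 300000 strongest pairs of 5 kb anchors in a cell line with a signal value, called loop strength here. Each strength is thus 1 value per cell line with no replicate error, and no difference below has a replicate check or a p-value.

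Axon guidance molecules are cell surface receptors and their secreted or membrane-bound ligands, and they steer growing nerve fibers by attraction or repulsion. Semaphorins signal through plexins, with neuropilins as co-receptors, slits through ROBO receptors, netrins through DCC and UNC5 receptors, and ephrins through Eph receptor tyrosine kinases. Many of them also act in cell migration, in vessel growth and in tumors, glioma included. Cohesin extrudes loops of chromatin until it meets the DNA-binding protein CTCF, most often at a pair of CTCF motifs that point toward each other.

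The members held about as many listed anchor pairs in H4 as in H4 88-1, 438 and 427, and more in the other system, 557 in 42MGBA and 581 in 42MGBA 53-1. The strength of listed member pairs had a median of 5.04 in H4 and 5.42 in H4 88-1, then 5.53 in 42MGBA and 5.23 in 42MGBA 53-1. The lowest strength in the whole list was 4.14 in H4 and 4.44 in H4 88-1, then 4.49 in 42MGBA and 4.28 in 42MGBA 53-1, and a pair that is not listed in a line is weaker than this value there, not absent. Neighboring anchor pairs describe the same contact many times, so that the number of listed pairs at a gene reflects both how many contacts it has and how broad and strong they are.

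Which cell lines shared a pair differed from the rest of the lists. Only 96 of the 1059 member pairs, 9.07%, were listed in all 4 lines, compared with 19.3% of all listed pairs and 20.4% of those at any protein-coding gene. The 42MGBA system alone held 453 member pairs, 42.8%, compared with 32.4% of all pairs, and the H4 system alone held 277, 26.2%, compared with 30.8%. SEMA5A, NRP1 and ROBO1 supplied many of the pairs of the 42MGBA system. These shares count neighboring pairs of few genes. The 96 pairs came from 10 genes, and SEMA5A with 177 listed pairs and NRP1 with 122 supplied 0 of them.

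**Figure D1:**
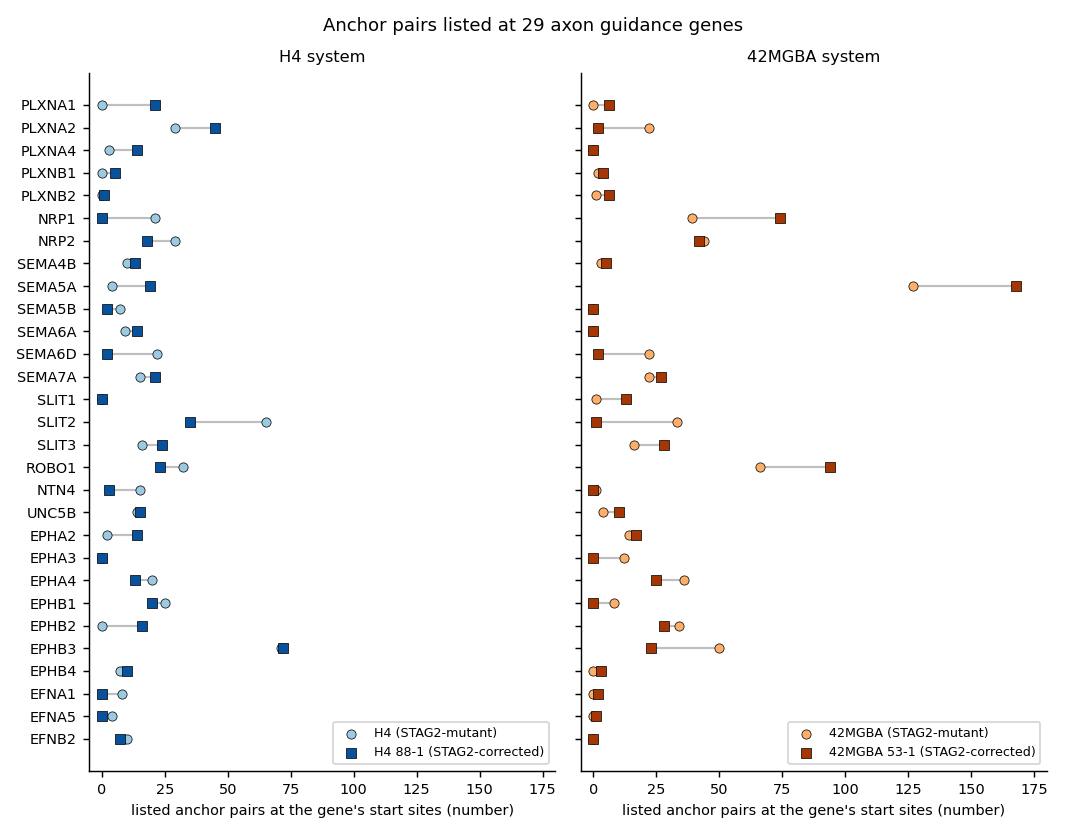
Number of listed anchor pairs (x axis) at the start sites of each of the 29 axon guidance genes that had any, in the H4 system (left) and the 42MGBA system (right), 1 value per cell line. Circles are the STAG2-mutant line, squares are the STAG2-corrected line and gray lines join the values of a gene. SEMA5A rises to 127 and 168 in the 42MGBA system, and PLXNA1 is at 0 in both STAG2-mutant lines.

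The 9 genes with no listed pair in any line were the receptors PLXND1, ROBO2, DCC, UNC5C, UNC5D, EPHA5 and EPHA7, the semaphorin SEMA4D and the ligand NTN1. Of the 29 others, 15 had more listed pairs in H4 88-1 than in H4, which is 51.7% of the genes, compared with 42.4% of all protein-coding genes with a listed pair. Fewer were listed in H4 88-1 for 12 of them, 41.4%, compared with 39%. In the 42MGBA system 15 genes had more pairs in the STAG2-corrected line, 51.7% compared with 37.1%, and 10 had fewer, 34.5% compared with 38.7%. The lists do not end at the same strength. With every list limited to pairs of strength 4.488 or more, 11 genes had more pairs in 42MGBA 53-1 and 10 had fewer. In the H4 pair 17 then had more in H4 88-1 and 9 fewer. Shares over all genes were not computed under this limit. Some genes were listed in a single line of a pair. PLXNA1, PLXNB1, PLXNB2 and EPHB2 were listed in H4 88-1 and not in H4, 13.8% compared with 10.5%, and NRP1, EFNA1 and EFNA5 the other way round, 10.3% compared with 11.8%. PLXNA1, EPHB4, EFNA1 and EFNA5 were listed in 42MGBA 53-1 and not in 42MGBA, 13.8% compared with 10.3%, and NTN4, EPHA3 and EPHB1 the other way round, 10.3% compared with 11.4%. In 42MGBA 53-1 the pairs of EPHB4 and EFNA5 reached only 4.37 and 4.31. Both values are below the lowest strength of the 42MGBA list, 4.49, so that these 2 genes show no difference between the lines. Of the genes listed in a single line of a pair, only PLXNA1 was without pairs in both STAG2-mutant lines and with pairs in both derivatives. Between the systems, 7 genes had at least 5-fold more pairs in the H4 system, 24.1% compared with 27.4%, and 5 had at least 5-fold more in the 42MGBA system, 17.2% compared with 19.7%. The former were PLXNA4, SEMA5B, SEMA6A, NTN4, EPHB1, EPHB4 and EFNB2, and the latter were PLXNB2, NRP1, SEMA5A, SLIT1 and EPHA3.

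To compare strengths, the 100000 strongest pairs of 2 cell lines were merged, the strength in one line was regressed on that in the other through the origin, and the residual was divided by its SD to give a z-score. A loop was called stronger or weaker when its z-score passed the two-sided 0.05 point of a normal distribution, near 2.0 in either direction. This cutoff ranks loops and tests nothing, and a loop missing from a list was set to that list's lowest strength, so that its difference is a lower bound. Of 158 merged member loops in the H4 pair, 6 were called stronger in H4 88-1, which is 3.80%, compared with 1.94% of all merged loops and 2.32% of those at protein-coding start sites. None was called weaker, compared with 2.17% and 1.82%. Of 254 merged member loops in the 42MGBA pair, 9 were called stronger in 42MGBA 53-1, which is 3.54%, compared with 1.61% and 1.49%, and 1 was called weaker, compared with 2.45% and 2.12%. With all 300000 loops of a line merged, 17 of 606 member loops were called stronger in the H4 pair, compared with 2.98% of all merged loops, and with loops missing from a list left out, 2 of 134, compared with 2.16%. The 6 stronger loops of the H4 pair belonged to PLXNA1 with 4 and EPHB3 with 2, and the 9 of the 42MGBA pair to SEMA5A with 6, ROBO1 with 2 and NRP1 with 1. The weaker loop of the 42MGBA pair belonged to EPHA4, and the number of member loops called in both pairs was 0.

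**Figure D2:**
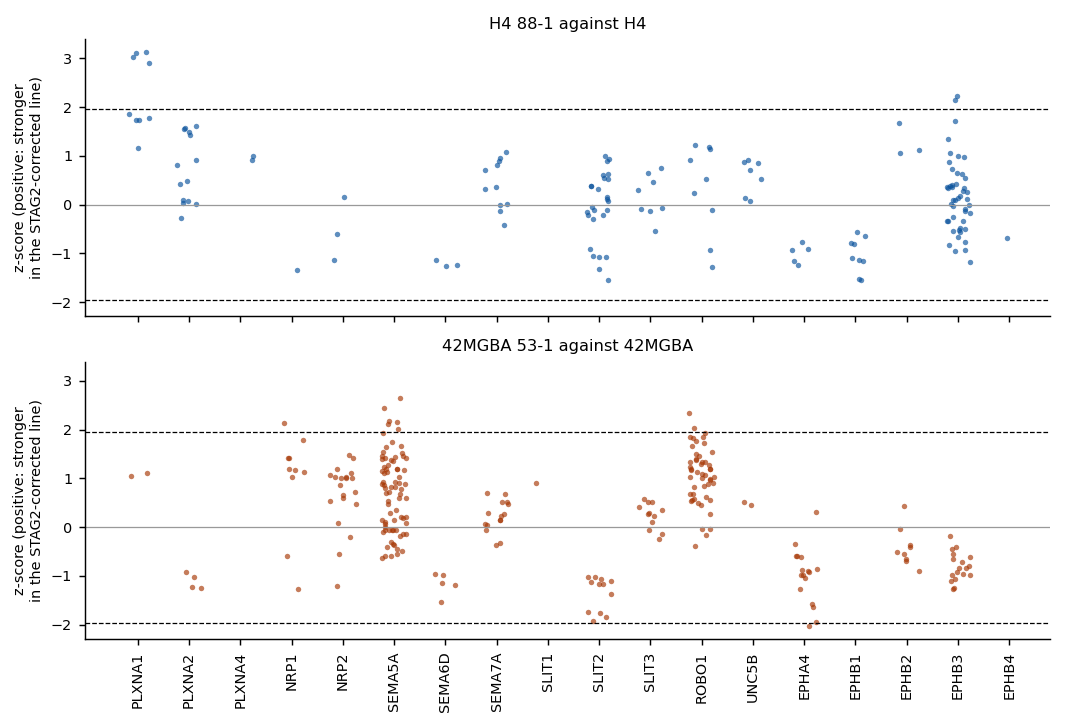
Z-scores (y axis) of the merged loops of each axon guidance gene (x axis) in H4 88-1 against H4 (top) and in 42MGBA 53-1 against 42MGBA (bottom), where each point is 1 merged anchor pair and positive values are stronger in the STAG2-corrected line. Dashed lines mark the cutoff near 2.0 in either direction, and the points above them belong to PLXNA1 and EPHB3 in the upper panel and to NRP1, SEMA5A and ROBO1 in the lower panel.

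The median log2 ratio of member loops was 0.12 in H4 88-1 against H4, compared with 0.07 over all merged loops, and 0.03 in 42MGBA 53-1 against 42MGBA, compared with -0.11. Loop size bears on these values. In the H4 pair 58.9% of member loops had a positive z-score, compared with 50% of all merged loops. When the z-scores were computed within 10 bins of loop size this share was 47.5%, compared with 49.7%, and with all 300000 loops of a line merged it was 51.2%, compared with 50.2%. Of the loops merged in the 42MGBA pair, 61.4% had a positive z-score, compared with 51.3%. The share there was 64.2% within size bins, compared with 50.7%, and 55.9% within chromosomes, compared with 50.8%.

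Among the semaphorin receptors, PLXNA1, a plexin for class 3 semaphorins, was listed in the STAG2-corrected lines alone. No anchor pair at its start was listed in H4 or in 42MGBA, while 21 were listed in H4 88-1 and 6 in 42MGBA 53-1. The strongest joined the PLXNA1 start at chr3:126701381-126706338 with chr3:126470869-126475771, which lies 231 kb upstream in an intron of CHCHD6, a gene for a mitochondrial inner membrane protein. It measured 9.73 in H4 88-1 and 5.98 in 42MGBA 53-1. Both STAG2-corrected lines were therefore above the lowest strength of their STAG2-mutant parents, 4.14 in H4 and 4.49 in 42MGBA. The log2 ratio was at least 1.23 in the H4 pair, with a z-score of 3.13, and at least 0.42 in the 42MGBA pair, with a z-score of 1.12. The PLXNA1 contact was thus called in the H4 pair and missed the cutoff in the 42MGBA pair, and whether the 2 differences differ cannot be tested with 1 list per line. A total of 16 neighboring pairs between 211 and 250.1 kb belonged to this contact, all of them listed in H4 88-1.

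The anchor upstream of PLXNA1 held a match to the CTCF core consensus, a motif of 12 bases searched on both strands. It lay on the plus strand of the left anchor and so pointed toward PLXNA1. No match lay in the PLXNA1 start-site anchor. The 40 bases around the match, at chr3:126471229-126471268 of hg19 on the plus strand, are shown because this PLXNA1 loop had the most extreme positive z-score of any member in an isogenic pair, with the match in capitals. The 150 bases before the PLXNA1 start, at chr3:126701808-126701957 on the plus strand, are shown with GC boxes, the letters GGGCGG or CCGCCC, in capitals, where overlapping matches run together. They held 5 GC boxes and 89.3% G and C. Of 35116 promoters, 36.8% held a GC box in this window, and the median share of G and C was 60%.
PLXNA1 upstream anchor: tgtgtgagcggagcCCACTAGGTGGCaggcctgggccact
PLXNA1 promoter: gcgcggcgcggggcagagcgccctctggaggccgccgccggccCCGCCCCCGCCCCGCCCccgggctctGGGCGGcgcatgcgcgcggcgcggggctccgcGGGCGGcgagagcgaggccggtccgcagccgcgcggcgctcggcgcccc

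PLXNA2, another semaphorin receptor of the same class, was listed 29 times in H4 and 45 in H4 88-1, then 22 in 42MGBA and 2 in 42MGBA 53-1. Its strongest loop spanned 223 kb inside the gene, from chr1:208414099-208418997 to chr1:208191492-208196486. The strength was 7.69 in H4 and 10.8 in H4 88-1, then 7.24 in 42MGBA and 4.71 in 42MGBA 53-1. H4 88-1 was highest and 42MGBA 53-1 lowest, so that the isogenic differences ran in opposite directions, with z-scores of 1.62 and -1.24, neither past the cutoff. The loop was called weaker in 42MGBA 53-1 than in H4 88-1, with a z-score of -2.07. With an intercept in the regression the PLXNA2 call was lost, in a setting that called 0.178% of all merged loops weaker. PLXNA4, a plexin that guides sensory and sympathetic axons, was listed 3 times in H4, 14 in H4 88-1 and 0 in both lines of the 42MGBA system. PLXNB1 and PLXNB2, receptors for class 4 semaphorins, had at most 6 listed pairs in any line. PLXNB1 was at 0 in H4 and 5 in H4 88-1, then 2 in 42MGBA and 4 in 42MGBA 53-1.

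NRP1, a co-receptor for semaphorins and for vascular endothelial growth factor, had 21 listed pairs in H4 and 0 in H4 88-1, then 39 in 42MGBA and 74 in 42MGBA 53-1. The contacts differed from line to line. In H4, 17 of the 21 were short, from 4.75 to 24.4 kb, and lay inside the gene. A further 3 were also short, from 4.79 to 9.76 kb, and 1 was long, at 1306 kb. In 42MGBA 53-1 the NRP1 start was joined with 3 stretches between 263 and 385.8 kb upstream by 14, 11 and 12 pairs, and 42MGBA listed 2 of them, both in the farthest stretch. The strongest of these joined chr10:33618183-33623148 with chr10:33994387-33999307 over 376 kb, with a strength of 4.61 in 42MGBA and 7.72 in 42MGBA 53-1, a log2 ratio of 0.74 and a z-score of 2.14. With an intercept in the regression this z-score was 1.81 and the call was lost. In the opposite direction, 15 NRP1 pairs of 700 kb or more were listed in 42MGBA and 0 in 42MGBA 53-1. Thus 42MGBA reached farther from NRP1 and its STAG2-corrected derivative held the nearer upstream contacts.

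NRP2, the neuropilin paralog, had the longest reach among the receptors of semaphorins. Its strongest loop joined chr2:206539663-206544674 with chr2:205187790-205192765, 1352 kb upstream and intergenic. The strength was 6.57 in H4 and 5.94 in H4 88-1, then 7.07 in 42MGBA and 8.15 in 42MGBA 53-1. All 4 lines listed the pair, and the z-scores of the isogenic pairs were -0.60 and 1.02. A contact between 1410 and 1434 kb, next to it, was listed 3 times in H4 and 0 in H4 88-1, then 4 in 42MGBA and 11 in 42MGBA 53-1, and one between 785 and 814 kb 5 times in H4 and 5 in H4 88-1, then 9 in 42MGBA and 0 in 42MGBA 53-1.

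Among the semaphorins, SEMA5A carried more pairs than any other member. SEMA5A encodes a transmembrane semaphorin with thrombospondin repeats, and it was listed 4 times in H4 and 19 in H4 88-1, then 127 in 42MGBA and 168 in 42MGBA 53-1. A broad contact inside the gene, between 249.6 and 398.8 kb from the start, held 67 pairs in 42MGBA and 77 in 42MGBA 53-1, with highest strengths of 9.29 and 8.94, compared with 1 pair of strength 4.23 in H4 and 0 in H4 88-1. This part of SEMA5A was therefore a feature of both lines of the 42MGBA system.

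The 6 SEMA5A loops called stronger in 42MGBA 53-1 lay in a shorter contact. Between 163 and 221 kb from the start, 13 pairs were listed in 42MGBA and 28 in 42MGBA 53-1, and all 16 merged loops had z-scores above 0, from 0.82 up. The most extreme of them joined chr5:9543641-9548488 with chr5:9341523-9346367, an intron of SEMA5A, over 202 kb. It measured 4.94 in 42MGBA and 8.83 in 42MGBA 53-1, with a log2 ratio of 0.84 and a z-score of 2.66, and neither line of the H4 system listed it. On chromosome 5 as a whole, 2.62% of merged loops were called stronger in 42MGBA 53-1. Upstream of SEMA5A the picture was another one. A contact between 569.7 and 614 kb was listed 0 times in H4 and 17 in H4 88-1, then 21 in 42MGBA and 21 in 42MGBA 53-1, so that H4 was the line that lacked it. Its highest strength was 5.75 in H4 88-1, compared with 7.97 in 42MGBA and 7.55 in 42MGBA 53-1.

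SEMA6D, a transmembrane semaphorin that binds plexins of class A, was listed 22 times in each STAG2-mutant line and 2 times in each STAG2-corrected line. Its pairs were all longer than 700 kb. Most joined the SEMA6D start with an intergenic stretch between 781 and 821 kb downstream. The strongest pair, from chr15:47477931-47482899 to chr15:48279039-48284030, had a strength of 6.0 in H4, while H4 88-1 did not list it, and of 7.94 in 42MGBA and 5.43 in 42MGBA 53-1. Both STAG2-mutant lines were above their derivatives. The SEMA6D loop was not called in either system, with z-scores of -1.14 and -1.19. Its log2 ratio was -0.43 or lower in the H4 pair, where H4 88-1 was set to its lowest listed strength, and -0.55 in the other. A second contact between 1085 and 1103 kb was listed 4 times in H4 and 5 times in 42MGBA and in neither STAG2-corrected line.

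SEMA7A, a membrane-anchored semaphorin that promotes axon outgrowth through integrins, had a short loop in all 4 lines. It joined chr15:74727950-74732929, just before the SEMA7A start, with chr15:74674221-74679220 over 53.7 kb. The strength was 8.58 in H4 and 10.2 in H4 88-1, then 12.7 in 42MGBA and 11.6 in 42MGBA 53-1. The z-scores were 0.70 and 0.05 in the isogenic pairs, and 1.35 and 0.94 between the systems, all inside the cutoff. Both anchors of SEMA7A held a match to the CTCF core consensus, and these pointed toward each other. They are shown, match in capitals, as the pair of facing motifs at a member loop listed in all 4 lines. The left one lies at chr15:74674879-74674918 on the plus strand and the right one at chr15:74731220-74731259 on the minus strand of hg19.
SEMA7A far anchor: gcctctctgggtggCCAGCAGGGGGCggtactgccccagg
SEMA7A start-site anchor: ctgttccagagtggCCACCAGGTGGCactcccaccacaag

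The other semaphorins had fewer pairs. SEMA4B was listed 10, 13, 3 and 5 times in the STAG2-mutant and STAG2-corrected H4 lines and then in the 42MGBA lines, all in 1 contact of 53.2 to 77.6 kb, with a highest strength of 5.71. SEMA6A was listed 9 times in H4 and 14 in H4 88-1, SEMA5B 7 and 2 times, and the 42MGBA system listed neither. No loop of these 3 genes was strong enough to be merged in the H4 pair.

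**Figure D3:**
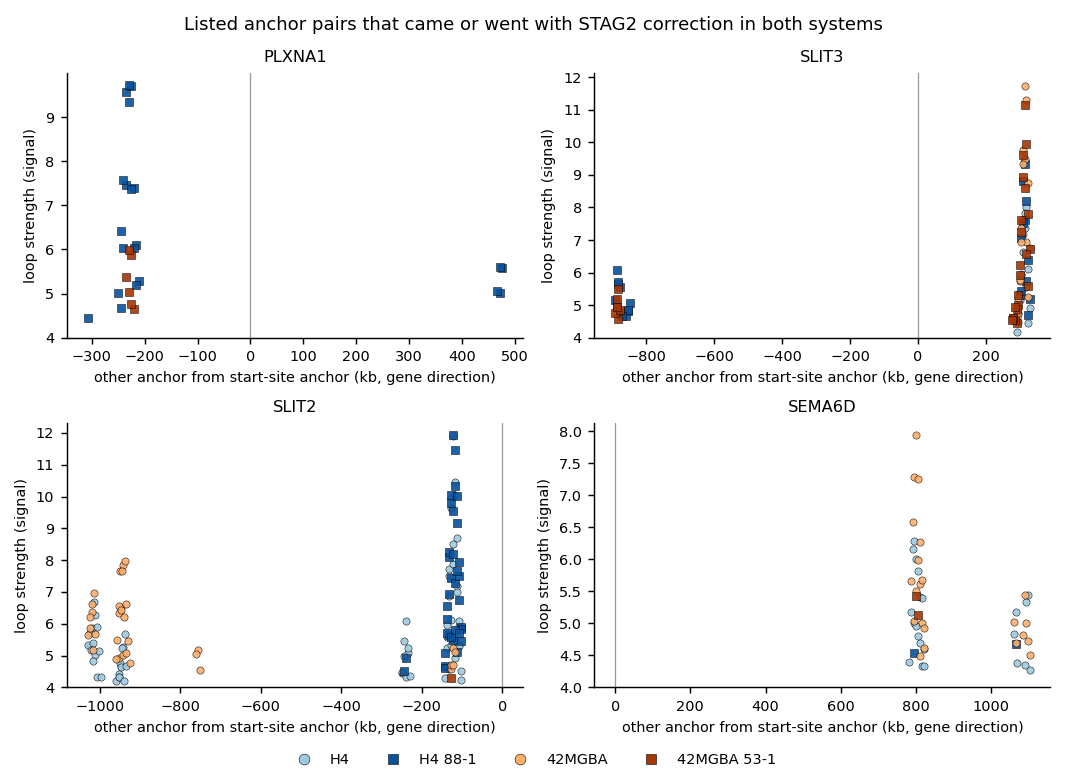
Loop strength (y axis, signal) of each listed anchor pair of PLXNA1, SLIT3, SLIT2 and SEMA6D against the distance of its other anchor from the start-site anchor (x axis, kb in the direction of the gene), with 1 point per anchor pair and cell line. PLXNA1 at 231 kb upstream and SLIT3 near 880 kb upstream hold squares of STAG2-corrected lines, and SLIT2 between 923 and 1029.5 kb upstream and SEMA6D beyond 781 kb hold nearly all circles, the STAG2-mutant lines.

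The slits are secreted ligands that repel axons, and none of their loops was called in an isogenic pair. SLIT2 was listed 65 times in H4 and 35 in H4 88-1, then 33 in 42MGBA and 1 in 42MGBA 53-1. From the start of SLIT2, long contacts reached into the gene-poor stretch upstream. Between 923 and 958 kb, 12 pairs were listed in H4 and 17 in 42MGBA, and between 997 and 1029.5 kb, 15 in H4 and 8 in 42MGBA. In both stretches H4 88-1 and 42MGBA 53-1 were at 0. The highest strengths were 5.68 in H4 and 7.97 in 42MGBA in the nearer stretch, and 6.67 and 6.98 in the farther one. In the 42MGBA pair 9 loops of the nearer stretch and 3 of the farther were merged, with z-scores between -1.93 and -1.01. In the H4 pair 5 were merged, all in the farther stretch, with z-scores between -1.55 and -1.05. Each is a value against the lowest listed strength, and the SLIT2 contacts were on the same side in both systems with none past the cutoff.

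A different SLIT2 loop told the systems apart. It joined chr4:20544534-20549546, an internal start of SLIT2, with chr4:20421943-20426231 in an intron over 123 kb. The strength was 11.9 in H4, 11.9 in H4 88-1 and 5.24 in 42MGBA, and 42MGBA 53-1 did not list it. In H4 and H4 88-1 it was almost equal, with a log2 ratio of 0.00. It was called weaker in 42MGBA than in H4, with a log2 ratio of -1.19 and a z-score of -2.59, and weaker in 42MGBA 53-1 than in H4 88-1, with a z-score of -2.63. The SLIT2 call belongs to 1 of several chromosomes with an overall shift. The median log2 ratio over chromosome 4 was -0.29 in 42MGBA against H4 and -0.49 in 42MGBA 53-1 against H4 88-1. With z-scores computed within chromosomes, 3 member loops in place of 6 were called weaker in 42MGBA than in H4. With an intercept in the regression 0 of 242 and 0 of 288 member loops were called weaker in the comparisons between systems. Of all merged loops, 0.19% and 0.178% were. Both SLIT2 calls were thus lost in a setting that called few loops weaker anywhere.

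SLIT3 was listed 16 times in H4 and 24 in H4 88-1, then 16 in 42MGBA and 28 in 42MGBA 53-1. A contact between 873 and 892 kb, from an internal start of SLIT3 to the start of SPDL1, a gene for a mitotic spindle protein, was listed 8 times in H4 88-1 and 6 in 42MGBA 53-1 and not at all in either STAG2-mutant line. The highest strength was 6.07 in H4 88-1 and 5.49 in 42MGBA 53-1. These values were too low for the 100000 strongest pairs, so that the contact has no z-score. The strongest SLIT3 loop, in contrast, was listed in all 4 lines. It spanned 314 kb from chr5:168727447-168732445, at the 5' end of the gene, to chr5:168413689-168418680 in an intron, and measured 7.83 in H4 and 9.33 in H4 88-1, then 11.7 in 42MGBA and 11.1 in 42MGBA 53-1. Its isogenic z-scores were 0.65 and 0.27. The start-site anchor of SLIT3 held a match to the CTCF core consensus on the minus strand that pointed into the loop, at chr5:168729683-168729722, shown with the match in capitals for comparison with PLXNA1 and SEMA7A.
SLIT3 start-site anchor: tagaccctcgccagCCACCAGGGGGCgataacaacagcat

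SLIT1 was listed 0 times in either H4 line, 1 in 42MGBA and 13 in 42MGBA 53-1, all between 97.3 and 125.7 kb, and its strongest pair had a strength of 4.85 in 42MGBA and 5.99 in 42MGBA 53-1.

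ROBO1, the slit receptor, was the strongest member of the 42MGBA system. It was listed 32 times in H4 and 23 in H4 88-1, then 66 in 42MGBA and 94 in 42MGBA 53-1. Its strongest loop spanned 359 kb inside the gene, from the internal start site at chr3:79067122-79072058 to chr3:78707672-78712652. The strength was 6.72 in H4 and 6.93 in H4 88-1, then 13.7 in 42MGBA and 15.4 in 42MGBA 53-1. The 2 lines of each system lay close to each other and the systems were apart. The loop was called stronger in 42MGBA than in H4, with a log2 ratio of 1.03 and a z-score of 2.41, and in 42MGBA 53-1 than in H4 88-1, with a log2 ratio of 1.16 and a z-score of 3.62. With z-scores of the log2 ratio, 0 member loops were called stronger in 42MGBA than in H4, so that this ROBO1 call was lost.

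Within the 42MGBA pair a neighboring ROBO1 pair, which joined the same start site with chr3:78702815-78707671, was called stronger in 42MGBA 53-1. It measured 5.42 in H4 and 5.66 in H4 88-1, then 10.9 in 42MGBA and 13.7 in 42MGBA 53-1, with a log2 ratio of 0.33 and a z-score of 2.34 in the 42MGBA pair. On the log2 scale the z-score was 1.24, so the call was lost there. Of the 50 merged loops of this ROBO1 contact, 46 had a positive z-score in 42MGBA 53-1 against 42MGBA, while the merged loops of chromosome 3 had a median log2 ratio of -0.17. All ROBO1 calls lay at internal start sites, and with the 5' end of each gene as the only start site the numbers of member loops called stronger in 42MGBA than in H4 and in 42MGBA 53-1 than in H4 88-1 were both 0.

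The far anchor of the strongest ROBO1 loop held a match to the CTCF core consensus that pointed toward the start site, at chr3:78708713-78708752 on the plus strand. It is shown with the match in capitals, and the 150 bases before the internal start, at chr3:79068610-79068759 on the minus strand, with no capitals because they held no GC box. Their share of G and C was 58.7%.
ROBO1 far anchor: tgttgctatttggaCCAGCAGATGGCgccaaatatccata
ROBO1 internal promoter: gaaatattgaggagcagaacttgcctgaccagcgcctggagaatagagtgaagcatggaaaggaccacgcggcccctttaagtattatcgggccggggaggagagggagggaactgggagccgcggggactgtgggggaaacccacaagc

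Netrin genes gave few pairs. NTN4, a secreted netrin of basement membranes, was listed 15 times in H4 and 3 in H4 88-1, then 1 in 42MGBA and 0 in 42MGBA 53-1, with a highest strength of 5.58. UNC5B, a netrin receptor also found in vessels, was listed 14, 15, 4 and 10 times in the same order, all in 1 contact of 270.3 to 309 kb. Its strongest pair reached 7.03 in H4 and 8.95 in H4 88-1, then 6.30 in 42MGBA and 6.65 in 42MGBA 53-1. The UNC5B values were higher in the STAG2-corrected line of each pair, with z-scores of 0.91 and 0.51, neither past the cutoff.

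Among the Eph receptors, EPHB3 held the strongest member loop of all. EPHB3, a receptor for ephrins of class B, was listed 71 times in H4 and 72 in H4 88-1, then 50 in 42MGBA and 23 in 42MGBA 53-1. The loop joined the EPHB3 start at chr3:184275995-184280546 with the intergenic anchor chr3:184492430-184497432, 217 kb downstream. The strength was 17.5 in H4 and 21.8 in H4 88-1, then 11.5 in 42MGBA and 9.83 in 42MGBA 53-1. H4 88-1 was highest, and both lines of the H4 system were above both lines of the 42MGBA system. The loop was called stronger in H4 88-1 than in H4, with a log2 ratio of 0.31 and a z-score of 2.14, and weaker in 42MGBA than in H4, with a log2 ratio of -0.60 and a z-score of -2.31. The widest gap was between the STAG2-corrected lines, with a log2 ratio of -1.15 and a z-score of -3.83. In the 42MGBA pair the z-score was -0.44. The next pair, to chr3:184497433-184502349, had the larger z-score in the H4 pair and measured 15.3 in H4 and 19.7 in H4 88-1, then 11.0 in 42MGBA and 9.0 in 42MGBA 53-1. Its z-score in the H4 pair was 2.24. On the log2 scale it was 0.80, and this EPHB3 call was lost. The strongest loop has a lower log2 ratio, 0.31 compared with 0.36, so that its call in the H4 pair was lost on that scale too. With an intercept in the regression both EPHB3 calls between the systems were lost, in a setting that called 0.19% and 0.178% of all merged loops weaker.

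In the main EPHB3 contact, 67 pairs were listed in each line of the H4 system, 50 in 42MGBA and 23 in 42MGBA 53-1. All 44 merged loops had a negative z-score in 42MGBA against H4, all 43 in 42MGBA 53-1 against H4 88-1, and all 18 in 42MGBA 53-1 against 42MGBA. In H4 88-1 against H4 the signs were mixed, with 26 of 46 positive and z-scores from -1.17 to 2.24. EPHB3 and ROBO1 lie on the same chromosome and differed between the systems in opposite directions. The median log2 ratio over chromosome 3 was -0.20 in 42MGBA against H4 and -0.49 in 42MGBA 53-1 against H4 88-1, and 4.48% of its merged loops were called weaker in the latter comparison. The ROBO1 values therefore ran against the shift of their chromosome and the EPHB3 values with it.

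The far anchor of EPHB3 held a match to the CTCF core consensus on the minus strand, pointing back toward EPHB3, at chr3:184495717-184495756. It is shown with the match in capitals, and so are the 150 bases before the EPHB3 start, at chr3:184279423-184279572 on the plus strand, with their single GC box in capitals and 74% G and C.
EPHB3 far anchor: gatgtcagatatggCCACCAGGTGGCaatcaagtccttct
EPHB3 promoter: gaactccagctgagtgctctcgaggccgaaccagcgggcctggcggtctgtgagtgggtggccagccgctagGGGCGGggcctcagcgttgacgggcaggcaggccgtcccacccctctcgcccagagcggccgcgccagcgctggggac

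**Figure D4:**
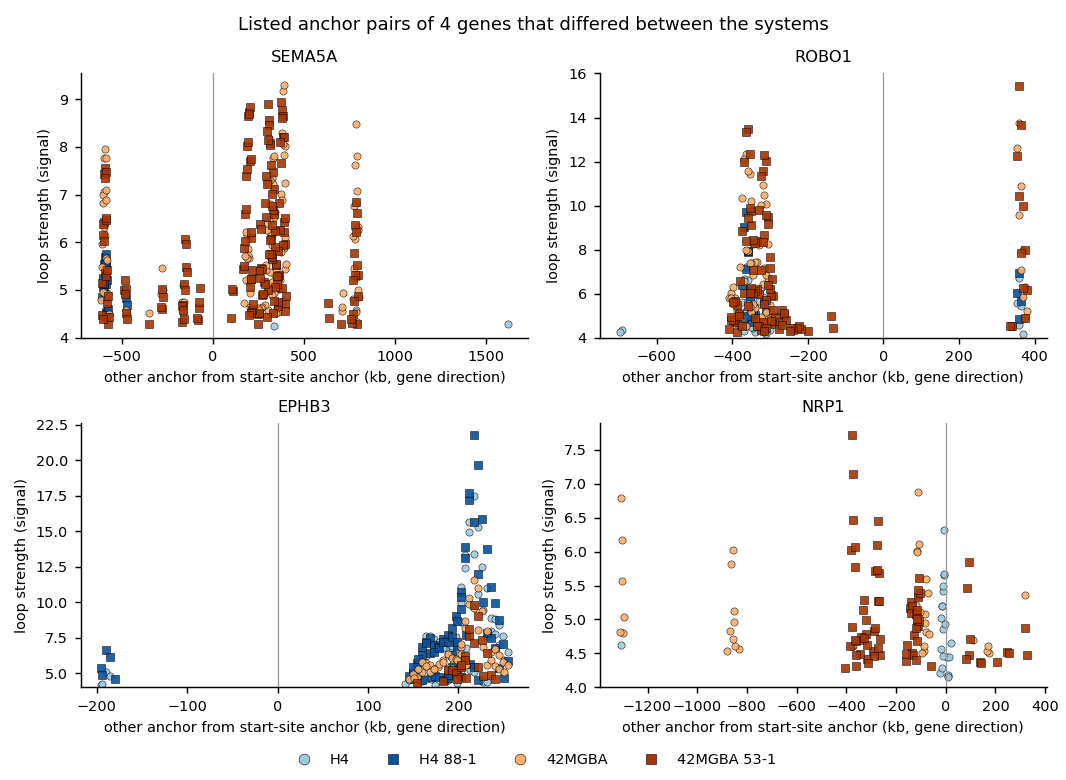
Loop strength (y axis, signal) of each listed anchor pair of SEMA5A, ROBO1, EPHB3 and NRP1 against the distance of its other anchor from the start-site anchor (x axis, kb in the direction of the gene), with 1 point per anchor pair and cell line. Blue points of the H4 system reach 21.8 at EPHB3, orange and brown points of the 42MGBA system reach 15.4 at ROBO1, and the upstream contacts of NRP1 between 263 and 385.8 kb are brown squares of 42MGBA 53-1 with few exceptions.

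EPHA4, a receptor for ephrins of both classes, held the single member loop called weaker in an isogenic pair. EPHA4 was listed 20 times in H4 and 13 in H4 88-1, then 36 in 42MGBA and 25 in 42MGBA 53-1. The called loop joined chr2:222431081-222436030 with the intergenic anchor chr2:221550817-221555723 over 880.3 kb. The strength was 6.4 in H4 and 4.69 in H4 88-1, then 9.09 in 42MGBA and 5.12 in 42MGBA 53-1. Both STAG2-mutant lines were above their derivatives, with log2 ratios of -0.45 and -0.83 and z-scores of -1.23 and -2.03 in the H4 and 42MGBA pairs. The EPHA4 call was near the cutoff. The z-score was -1.94 with an intercept in the regression and -1.48 within bins of loop size. A still longer EPHA4 contact, between 1824 and 1858 kb, was listed 6 times in H4 and 2 in H4 88-1, then 18 in 42MGBA and 9 in 42MGBA 53-1, with highest strengths of 5.77, 4.70, 8.12 and 6.01. EPHA4 also had a contact of the opposite kind in the H4 system, between 382 and 397 kb upstream, listed 1 time in H4, 6 in H4 88-1 and 0 in the 42MGBA system.

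EPHB1 likewise reached far. It was listed 25 times in H4 and 20 in H4 88-1, then 8 in 42MGBA and 0 in 42MGBA 53-1. Its strongest pair spanned 1103 kb, with a strength of 7.99 in H4, 7.04 in H4 88-1 and 5.82 in 42MGBA, and it was not listed in 42MGBA 53-1. All 9 merged loops of the EPHB1 contact between 1079 and 1123 kb had a negative z-score in H4 88-1 against H4, the lowest at -1.55. EPHA3 was listed in a single line, 42MGBA, with 12 pairs between 884 and 908 kb and a highest strength of 5.07.

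Other Eph receptors had shorter contacts. EPHB2 was listed 0 times in H4 and 16 in H4 88-1, then 34 in 42MGBA and 28 in 42MGBA 53-1, with a highest strength of 7.27 in H4 88-1, 8.41 in 42MGBA and 6.66 in 42MGBA 53-1. H4 was the line without EPHB2 pairs, and the 3 merged loops of the H4 pair had z-scores between 1.07 and 1.67. The 9 EPHB2 loops merged in the 42MGBA pair had z-scores between -0.90 and 0.43, of which 1 was positive, and their median log2 ratio was -0.29. EPHA2 was listed 2 times in H4 and 14 in H4 88-1, then 14 in 42MGBA and 17 in 42MGBA 53-1, at 24.3 to 83.7 kb. EPHB4, which pairs with EFNB2 in vessels, was listed 7, 10, 0 and 3 times in the same order. The ephrins, ligands of these receptors, were weak throughout. EFNA1 was listed 8, 0, 0 and 2 times, EFNA5 4, 0, 0 and 1 times and EFNB2 10, 7, 0 and 0 times in the same order. No ephrin pair was strong enough to be merged in any of the 4 comparisons.

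Between the systems, 242 member loops were merged in 42MGBA against H4. Of these, 2 were called stronger in 42MGBA, both at ROBO1, compared with 2.11% of all merged loops and 2.3% of those at protein-coding start sites. A further 6 were called weaker, 3 at EPHB3 and 3 at SLIT2, which is 2.48%, compared with 1.93% and 1.88%. In 42MGBA 53-1 against H4 88-1, 14 of 288 were called stronger, all at ROBO1, which is 4.86%, compared with 1.92% and 1.95%, and 18 weaker, which is 6.25%, compared with 2.09% and 2.08%. The 18 were 11 at EPHB3, 5 at SLIT2 and 2 at PLXNA2. Each count comes from neighboring pairs of a few contacts. H4 and 42MGBA come from different tumors, and a difference between the systems at these genes cannot be told apart from other differences between those tumors.

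Pairs that came or went together with STAG2 in both systems were few. In both STAG2-corrected lines and in neither STAG2-mutant line, 18 member pairs were listed, 1.7%, compared with 1.33% of all listed pairs and 1.49% of those at protein-coding genes. They came from 7 genes, PLXNA1 and SLIT3 with 6 each, PLXNB1 with 2, and NRP2, SEMA4B, SEMA5A and EPHA2 with 1 each. In both STAG2-mutant lines and in neither STAG2-corrected line, 43 were listed, 4.06%, compared with 1.57% and 1.46%. Of the 43, 20 belonged to SLIT2 and 16 to SEMA6D, and the others to EPHA4 with 3, NRP2 with 2 and NRP1 and NTN4 with 1 each. The SLIT2 pairs came from 2 contacts, with 12 and 8, and the SEMA6D pairs from 3, with 11, 1 and 4, so that the 43 pairs are not 43 separate observations. The 2 numbers, 18 and 43, moved with the limits set. With every list limited to pairs of strength 4.488 or more, the lowest value of the 42MGBA list, they were 16 and 34. They were 2 and 8 among the 100000 strongest pairs of each line, 9 and 17 where an anchor had to overlap a start site, and 40 and 85 within 10 kb of one. Shares were not computed under these limits, so that these counts do not show whether the difference from all listed pairs held.

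The pairs of the STAG2-mutant kind were long. Anchor pairs of 700 kb or more, a limit chosen after the values were seen, made up 27.4% of member pairs in H4 with 120, 11.9% in H4 88-1 with 51, 29.3% in 42MGBA with 163 and 12.6% in 42MGBA 53-1 with 73. In all listed pairs these shares were 13.9%, 9.34%, 9.92% and 6.47%. The STAG2-corrected line was lower in both systems, for members and for all pairs, so that the direction belongs to the lists as a whole. With a limit of 500 kb the member shares were 29.5%, 17.1%, 33.0% and 16.5%, compared with 29.7%, 23.6%, 23.1% and 16.6% of all pairs. Of the 10 genes with pairs of 700 kb or more, 8 had fewer of them in H4 88-1 than in H4 and 7 fewer in 42MGBA 53-1 than in 42MGBA. The same count over all protein-coding genes was not made, so that these numbers are not a result about the members.

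SLIT3 was the exception in both systems, with 0 long pairs in H4 and 42MGBA, 12 in H4 88-1 and 6 in 42MGBA 53-1. NRP2 had 19 long pairs in H4 and 11 in H4 88-1, then 23 in 42MGBA and 24 in 42MGBA 53-1. SLIT2 had 27 and 28 in the STAG2-mutant lines and 0 in both derivatives. EPHA4 had 19 in H4 and 7 in its derivative, then 36 in 42MGBA and 25 in its derivative, and SEMA5A had 3, 0, 19 and 16 in the same order.

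**Figure D5:**
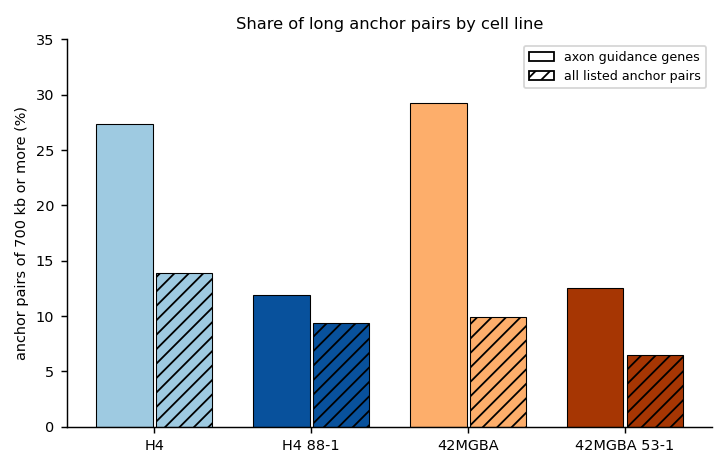
Share of listed anchor pairs of 700 kb or more (y axis, percent) in each cell line, for the axon guidance genes (plain bars) and for all listed anchor pairs (hatched bars), with 1 pooled list per line and no error. The plain bars stand at 27.4% in H4 and 29.3% in 42MGBA and at 11.9% and 12.6% in their STAG2-corrected derivatives.

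The CTCF core consensus was rare in member anchors, as it was in all anchors. It lay in 7 of 126 start-site anchors, 5.56%, and in 25 of 489 other anchors, 5.11%, compared with 3.93% of all listed anchors. Of 31 member anchor sides with a match on 1 strand, 24 pointed into the loop, 77.4%, compared with 69.8% of 6040 sides over all listed pairs. The sequences of PLXNA1, ROBO1, EPHB3, SEMA7A and SLIT3 shown above are among those that pointed inward. A match is a description of letters, and no match says only that these letters are not in a window.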

How the data were processed

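Hi-C data from 8 samples, 2 biological replicates of each of 4 cell lines, were used as deposited, and 12 RNA-seq samples were not analysed here. The authors used the Arima Hi-C+ kit, trimmed reads to 36 bases, aligned them to hg19 with bowtie, corrected biases with HiCorr, enhanced the matrix with LoopEnhance of DeepLoop and pooled replicates. What they deposited is a signal (loop strength) and a distance for each of 300000 pairs of 5 kb anchors per cell line. No scaling between lines is stated, and no read counts are given, so that depth behind a value and counting error are unknown. The number of columns of per-sample values left unused was 0.

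Start sites came from GENCODE release 44 on the same build. Of 128561 anchors, 128559 began within 5 bases of a GATC or GANTC site of the GRCh37 sequence, compared with 3.24% at another place. Loop size was measured from midpoint to midpoint of the anchors, and neighboring pairs were joined into a contact within 10 kb. Promoters came from the RefSeq table of GRCh38.p14, matched letter for letter on hg19, and 33 members had one. The 38 members, the gene lists and the tests were chosen with earlier results of these data known. Named loops were the called loop of a gene with the largest z-score in each isogenic pair and direction, the 5 strongest loops of different genes, genes with at least a 5-fold difference in listed pairs between systems, and loops called in both pairs, of which there were 0. Contacts of SLIT2, SLIT3, SEMA6D, EPHB1, EPHB2 and NRP2 were added after their values were seen. Loops were compared by z-score, which is no test. Alternatives changed the regression, scale, cutoff, absent loops, loops merged, size bins, chromosomes and distance to a start site. The procedure was tested on simulated data. Python 3.11.15, numpy 2.4.6, pandas 2.3.3 and matplotlib 3.10.9 were used.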

Additional observations from a re-analysis of the deposited data

How the results depend on the processing

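Each number of called member loops is given here with the member loops merged and, in brackets, the share called over all merged loops. For these numbers, only settings with a change of more than 1.5-fold, or from or to 0, are listed. Settings not listed may hold smaller changes. In the H4 pair the 6 of 158 called stronger (1.94%) became 11 of 158 with an intercept in the regression (2.88%), 10 of 158 by 1.5-fold relative to the median (4.87%), 2 of 134 with absent loops left out (2.16%), 17 of 606 with all 300000 loops merged (2.98%) and 11 of 288 with anchors within 10 kb (1.94%). The 0 called weaker (2.17%) became 3 of 158 by 1.5-fold (3.95%), 5 of 606 with all loops merged (3.11%) and 5 of 288 within 10 kb (2.17%). In the 42MGBA pair the 9 of 254 called stronger (1.61%) became 15 of 254 by 1.5-fold (3.88%), 41 of 782 with all loops merged (2.55%), 15 of 254 within chromosomes (1.9%) and 5 of 120 with an anchor overlapping a start site (1.61%). The 1 called weaker (2.45%) became, of 254, 2 with an intercept (1.73%), 6 on the log2 scale (2.25%), 8 by 1.5-fold (5.19%), 0 within size bins (2.53%) and 3 within chromosomes (2.51%), then 14 of 782 with all loops merged (3.46%) and 5 of 407 within 10 kb (2.45%).

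In 42MGBA against H4, the 2 of 242 called stronger (2.11%) became, of 242, 6 with an intercept (3.78%), 0 on the log2 scale (1.2%), 70 by 1.5-fold (17.2%) and 6 within chromosomes (2.53%), then 28 of 760 with all loops merged (3.01%), 1 of 110 with an overlapping anchor, 9 of 398 within 10 kb and 0 of 172 with the 5' end of each gene (2.11% each). The 6 called weaker (1.93%) became, of 242, 0 with an intercept (0.19%), 28 by 1.5-fold (17.1%), 11 within size bins (1.89%) and 3 within chromosomes (2.14%), then 21 of 760 with all loops merged (2.92%), 3 of 110 with an overlapping anchor and 3 of 172 with the 5' end (1.93% each). In 42MGBA 53-1 against H4 88-1, the 14 of 288 called stronger (1.92%) became 86 of 288 by 1.5-fold (15.4%), 57 of 831 with all loops merged (2.79%), 5 of 138 with an overlapping anchor, 29 of 456 within 10 kb and 0 of 204 with the 5' end (1.92% each). The 18 called weaker (2.09%) became, of 288, 0 with an intercept (0.178%), 9 on the log2 scale (1.53%) and 71 by 1.5-fold (17.5%), then 40 of 831 with all loops merged (3.15%) and 10 of 138 with an overlapping anchor (2.09%).

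Alternatives added after the data were seen used the 100000 strongest pairs of each line. The genes with more listed pairs in H4 88-1 were then 7 and those with more in H4 were 8, in place of 15 and 12, so that the order was reversed. Those with more in 42MGBA 53-1 were 8 and those with more in 42MGBA were 6. The pairs of both STAG2-corrected lines alone numbered 2 and of both STAG2-mutant lines alone 8. These last 2 numbers were 9 and 17 with an overlapping anchor and 40 and 85 within 10 kb, and the former was 11 with the 5' end. No share over all listed pairs or all genes was computed beside these counts. Merging all loops and changing the distance also change how many loops enter, and otherwise the cause was not tested. For the called loops of PLXNA1, EPHB3, NRP1, SEMA5A, ROBO1 and EPHA4, 34 z-scores under alternatives stayed past the cutoff and 7 did not, and none changed sign. The PLXNA1 loop has no value with absent loops left out, because H4 does not list it. Its z-scores all rest on the lowest listed strength of H4.

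No paired analysis was possible because each list pools the replicates of a cell line, and leaving out a replicate was not run for the same reason. Loops below the lowest listed strength were not measured here, which limits every value given for an unlisted pair.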

Other observations

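Another list held 37 further axon guidance genes, namely plexins, semaphorins, netrins, Ephs, ephrins, receptors of slits and netrins, and RGMA and RGMB. Of these genes, 27 had listed pairs. Their 1113 pairs numbered 807 in H4 and 717 in H4 88-1, then 343 in 42MGBA and 281 in 42MGBA 53-1. They were thus more frequent in the H4 system, whereas the 38 members together held more pairs in the 42MGBA system. Much of the latter came from SEMA5A, with 23 pairs summed over the H4 lines and 295 over the 42MGBA lines. By genes with a listed pair the members did not lean that way. These genes numbered 23 in H4 and 24 in H4 88-1, then 21 in 42MGBA and 22 in 42MGBA 53-1. Of 334 merged loops in the H4 pair, 10 were called stronger in H4 88-1, 2.99% compared with 1.94% of all merged loops, and 29 weaker, 8.68% compared with 2.17%, the latter at SEMA3A, SEMA3C and SEMA3D, secreted semaphorins that signal through neuropilins and plexins, and at NTN3. On chromosome 7 as a whole, which holds SEMA3A, SEMA3C and SEMA3D, 6.45% of merged loops were called weaker in the H4 pair. In the 42MGBA pair 0 of 110 were called stronger, compared with 1.61% of all merged loops, and 2 weaker, at PLXNC1 and SEMA3D, 1.82% compared with 2.45%.

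A list of 40 intracellular effectors of axon guidance had 2492 pairs at 29 genes, with 1416 in H4 and 1459 in H4 88-1, then 1640 in 42MGBA and 1433 in 42MGBA 53-1. In the 42MGBA pair 48 of 762 merged loops were called weaker in 42MGBA 53-1, at MICAL2, MICAL3 and SRGAP1, 6.30% compared with 2.45% of all merged loops, and 3 stronger, at DPYSL3, 0.39% compared with 1.61%. Over whole chromosomes the share called weaker in this pair was 8.81% on chromosome 11, which holds MICAL2. It was 4.44% on chromosome 22, which holds MICAL3, and 2.12% on chromosome 12, which holds SRGAP1. The MICAL genes encode enzymes that act on actin below plexins, and SRGAP1 encodes a protein that acts below ROBO receptors. In the H4 pair 4 of 639 were called stronger, 0.63% compared with 1.94%, and 3 weaker, 0.47% compared with 2.17%.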
